A study of Homo sapiens with 6 samples.

Results

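The retinoblastoma pocket proteins and the E2F transcription factors were followed as 10 genes, chosen by symbol: RB1, RBL1, RBL2, E2F1, E2F2, E2F3, E2F4, E2F7, E2F8 and TFDP1. All 10 were present in the count tables of both experiments, out of 42972 gene symbols listed in either, and all 10 averaged at least 1 CPM (counts scaled to the library total) in each experiment. The cells were MDA-MB-231, an established line of triple-negative breast cancer. In the knockdown experiment, stable lines made with lentivirus carried a scramble shRNA or a hairpin against CDK16, a PCTAIRE-family cyclin-dependent kinase, and the hairpins were CDK16-sh1 and CDK16-sh2. In the Rebastinib experiment, the cells received the DMSO vehicle or Rebastinib (Reb), a multi-kinase inhibitor used in this study against CDK16, at 1 or 5 µM for 48 h. Each of the 6 conditions had 1 library, so no difference below has a replicate check, and the 95% intervals cover counting error only.

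Pocket proteins are the brakes of the G1/S transition. RB1 mainly holds the activating factors E2F1, E2F2 and E2F3, whereas RBL1 (p107) and RBL2 (p130) mainly hold E2F4 and E2F5 and, with the MuvB core, form the DREAM repressor of resting cells. Cyclin-dependent kinases phosphorylate the pocket proteins and release the E2F factors, which bind DNA with a DP partner such as TFDP1 and switch on genes of DNA synthesis. E2F7 and E2F8 are atypical repressors that need no DP partner and are themselves made late in G1 and S phase.

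Several of these genes carry E2F sites of their own, so the promoter stretches of the members with a match are shown here with the matched bases in capitals. The search used the 8 words TTTCCCGC, TTTCCCGG, TTTCGCGC, TTTCGCGG, TTTGCCGC, TTTGCCGG, TTTGGCGC and TTTGGCGG on both strands of RefSeq promoter windows of 300 bases (GRCh38.p14), from 250 bases before the start to 50 from the start on. Each stretch below has 70 bases, is written 5′ to 3′ on the strand of the gene and runs from base -60 to base 10 around the start, except for TFDP1, where it runs from -150 to -81.
E2F1, chr20:33686376-33686445, minus strand: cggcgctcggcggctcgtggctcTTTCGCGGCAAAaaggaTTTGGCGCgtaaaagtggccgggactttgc
E2F2, chr1:23531224-23531293, minus strand: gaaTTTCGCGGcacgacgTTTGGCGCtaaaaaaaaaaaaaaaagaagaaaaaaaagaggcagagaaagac
E2F3, chr6:20401819-20401888, plus strand: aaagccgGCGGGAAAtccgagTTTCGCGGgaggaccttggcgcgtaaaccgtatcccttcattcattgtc
RBL1, chr20:37095988-37096057, minus strand: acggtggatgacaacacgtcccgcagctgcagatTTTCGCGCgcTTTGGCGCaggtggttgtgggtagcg
TFDP1, chr13:113584603-113584672, plus strand: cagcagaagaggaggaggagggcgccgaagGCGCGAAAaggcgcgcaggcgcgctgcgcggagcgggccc

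E2F1, E2F2, E2F3 and RBL1 each held at least 2 words within 60 bases of the start, and in E2F1 a word on the plus strand overlapped one on the minus strand. Of all 35116 promoter windows, 6.19% held at least 1 word and 0.379% held at least 2. The listed windows of RBL2, E2F4 and E2F7 held no such word, the window listed for RB1 lay inside the gene and was not read as its promoter, and E2F8 had no listed window. The CHR element, which the MuvB complex reads (searched as TTTGAA and TTCGAA on both strands), occurred in 16.4% of windows, and among the members it was found in windows of E2F3 and RBL2.

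Total counts ran from 25838443 to 31955119 in the knockdown experiment and from 37655548 to 50303269 in the Reb experiment. Mitochondrial genes took 11.3% of counts in scramble, 10.4% in CDK16-sh1 and 16.2% in CDK16-sh2. The shares in DMSO, Reb 1 µM and Reb 5 µM were 7.19%, 8.30% and 16.4%. The targeted gene CDK16 gave 3223, 1360 and 846 counts in scramble, CDK16-sh1 and CDK16-sh2, a log2 fold change of -1.52 and -1.82. In DMSO and the 1 and 5 µM Reb libraries it gave 4996, 4609 and 2797 counts (log2 fold change -0.14 and 0.27). Basal and mesenchymal markers of this line (VIM, CD44, CAV1, AXL and EGFR) lay between 3.95 and 833 RPKM (reads scaled to gene length and library size). The lowest were CAV1 and EGFR at 5 µM Reb, at 3.95 and 4.81 RPKM against 26.7 and 28.6 in DMSO. The receptor genes ESR1 and PGR stayed near 0. ERBB2, the HER2 receptor gene that the triple-negative label also covers, was not near 0, at 2.56 to 6.54 RPKM. Of 2 epithelial genes taken as low in this line, CDH1 was at most 0.174 RPKM. EPCAM was not near 0, at 1.55 to 3.02 RPKM in the knockdown libraries and 1.89 to 4.3 in the Reb libraries. In such bulk RNA, fewer cells in a cycle phase and less RNA per cell cannot be told apart.

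In scramble cells the members spanned a wide range of levels per length. TFDP1 was the highest at 34.6 RPKM, followed by E2F4 at 27.7, E2F1 at 20.1 and E2F7 at 11.9. E2F3 (8.25), RBL1 (7.79) and RB1 (7.66) followed, and neighbouring intervals among these overlapped. E2F8 (5.65), RBL2 (1.62) and E2F2 (0.823) were the lowest. In DMSO cells E2F1, at 8.09 RPKM, ranked below E2F7 (10.9) and E2F3 (9.77), and E2F8 (4.60) ranked above RB1 (4.19) with overlapping intervals.

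**Figure D1:**
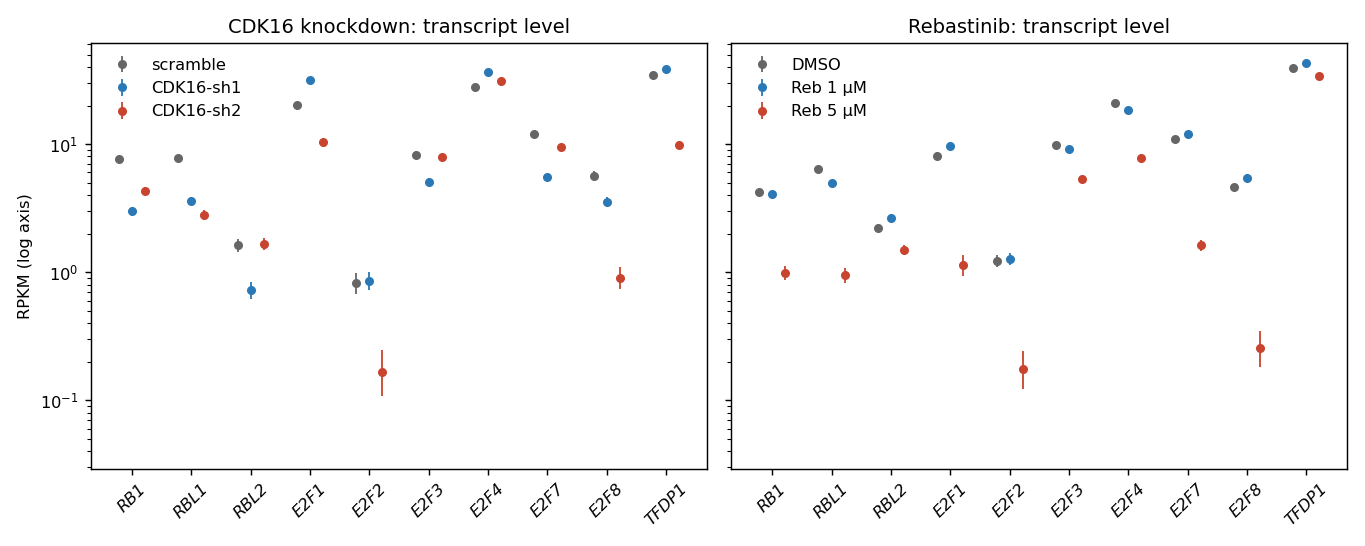
Level of each of the 10 genes in RPKM (log axis) in the 3 knockdown libraries (left) and the 3 Rebastinib libraries (right), 1 point per library with the 95% interval from counting error. E2F8 and E2F2 were the lowest points in CDK16-sh2 and in Reb 5 µM, and TFDP1 was low in CDK16-sh2 but not in Reb 5 µM, where it stood at 33.9 RPKM.

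The 2 hairpins differed in which members they left low. Relative to scramble, and after scaling by the trimmed mean of M values (TMM), 4 of 10 members were at least 2-fold lower in CDK16-sh1 (RB1, RBL1, RBL2 and E2F7), where 6.86% of the 15295 tested genes were that low. In CDK16-sh2 it was also 4 of 10 (RBL1, E2F2, E2F8 and TFDP1), against 7.62% of tested genes. No member was at least 2-fold higher in either line, against 4.33% and 2.2% of genes. RBL1 was the member past 2-fold in both lines. With the trend of all genes on GC content and length taken out, the CDK16-sh1 count fell from 4 to 0, RBL1 included (-0.66), and the CDK16-sh2 count stayed at 4.

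At 1 µM Reb no member was 2-fold away from DMSO in either direction, against 1.92% of the 15655 tested genes lower and 1.28% higher. At 5 µM 6 of 10 members were at least 2-fold lower (RB1, RBL1, E2F1, E2F2, E2F7 and E2F8) and none was higher. The whole transcriptome was widely different at this dose, with 27.2% of tested genes at least 2-fold lower and 23.6% higher.

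**Figure D2:**
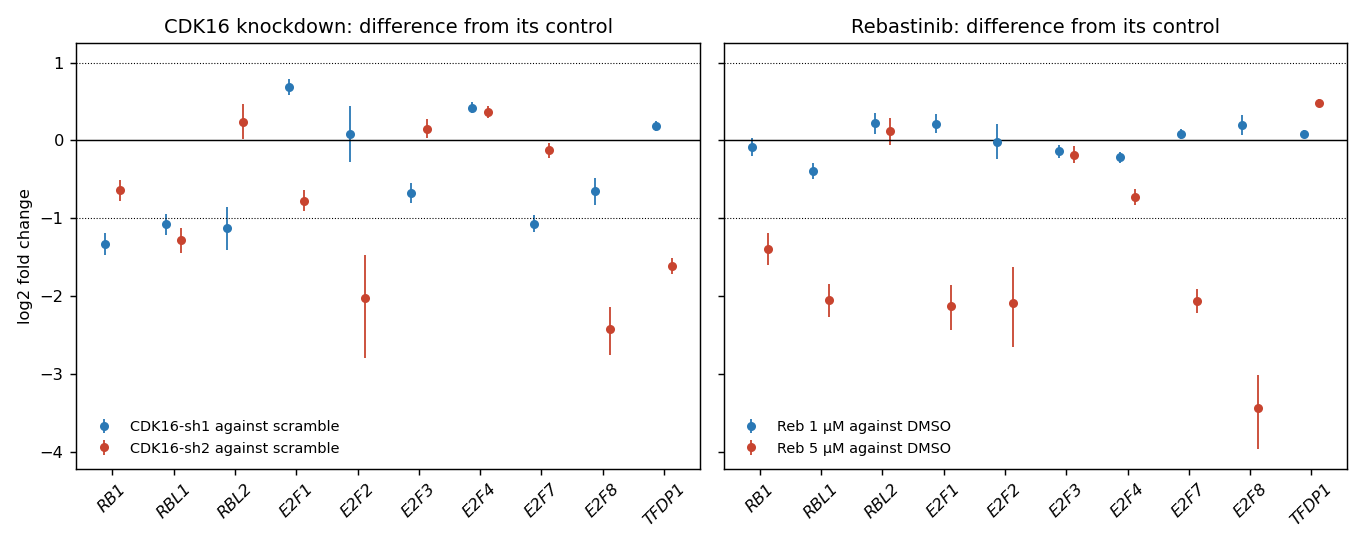
Log2 fold change of each gene against its own control, with 95% intervals from counting error. Dotted lines mark 2-fold. CDK16-sh1 and CDK16-sh2 (left) lay on opposite sides of 0 for E2F1, E2F2, E2F3, RBL2 and TFDP1, and Reb 5 µM (right) was below -1 for 6 genes whereas Reb 1 µM stayed between -0.39 and 0.22.

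Among the pocket proteins, RB1 (chr13:48303751-48481986), the founding member that represses activating E2F factors, gave 1221 counts in scramble, 589 in CDK16-sh1 and 729 in CDK16-sh2. Both hairpin lines were below scramble, CDK16-sh1 by -1.32 on the log2 scale (interval -1.47 to -1.19) and CDK16-sh2 by -0.64 (-0.77 to -0.50). In the Reb experiment RB1 gave 1299 counts in DMSO, 1246 at 1 µM and 229 at 5 µM, a log2 fold change of -0.08 (-0.20 to 0.03) and -1.39 (-1.61 to -1.19). The 1 µM library could not be told from DMSO at this depth, and the 5 µM library was far below both.

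RBL1 (chr20:36996349-37095995), which pairs with repressive E2F factors and is itself cell cycle regulated, gave 1199, 687 and 457 counts in scramble, CDK16-sh1 and CDK16-sh2. The log2 fold changes were -1.08 and -1.28, and the direct difference of CDK16-sh2 from CDK16-sh1 was -0.20 (-0.38 to -0.03). RBL1 gave 1899, 1472 and 212 counts in DMSO, 1 µM and 5 µM Reb. It was the member furthest below DMSO at 1 µM (log2 fold change -0.39, interval -0.49 to -0.29), lower than all but 14.3% of tested genes, and it stood at -2.05 at 5 µM.

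RBL2 (chr16:53433977-53491649), the pocket protein that dominates in resting cells, gave different results in the 2 lines. It had 306 counts in scramble, 169 in CDK16-sh1 and 336 in CDK16-sh2, so only CDK16-sh1 was low, and CDK16-sh2 exceeded CDK16-sh1 by 1.36 on the log2 scale (1.10 to 1.65). In the Reb experiment it gave 815, 966 and 411 counts, with log2 fold changes of 0.22 (0.09 to 0.36) and 0.12 (-0.05 to 0.29). Under scaling by library totals, the 5 µM value of RBL2 turned below 0. RBL2 shares 610 and 721 exon bases with AKTIP and RP11-44F14.7 on the opposite strand, RBL1 shares 211 with RP4-621N11.2, and E2F8 shares 7 with RP11-428C19.4. The library kit keeps strand, but the strand setting of the counting is not given in the sources used here. Reads over these shared bases therefore cannot be assigned to a gene or its partner here. Reads over the other bases of these genes are not affected by these overlaps.

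Shares within a library do not depend on the scaling between libraries. Of the summed RPKM of RB1, RBL1 and RBL2, RBL2 made up 9.48% in scramble, 9.87% in CDK16-sh1 and 19.1% in CDK16-sh2. It made up 17.4% in DMSO, 22.7% at 1 µM and 43.6% at 5 µM Reb. At the high dose RBL2 was thus the most abundant pocket protein transcript (1.49 RPKM, interval 1.35 to 1.64), above RB1 (0.986, 0.862 to 1.12) and RBL1 (0.946, 0.823 to 1.08).

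Among the activators, E2F1 (chr20:33675683-33686404) lay on opposite sides of scramble in the 2 hairpin lines. It gave 1303 counts in scramble, 2542 in CDK16-sh1 and 707 in CDK16-sh2. On the log2 scale CDK16-sh1 stood at 0.69 (interval 0.59 to 0.79) and CDK16-sh2 at -0.77 (-0.91 to -0.64), and the direct difference was -1.46 (-1.59 to -1.34). With DMSO, 1 µM and 5 µM Reb the counts were 1018, 1202 and 107. E2F1 was slightly above DMSO at the low dose (0.22, 0.10 to 0.34) and 4.38-fold below it at the high dose (-2.13, -2.44 to -1.85).

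E2F2 (chr1:23506430-23531220), the member with the lowest level in every library but CDK16-sh1, gave 116 counts in scramble, 149 in CDK16-sh1 and 25 in CDK16-sh2. For CDK16-sh1 the log2 fold change of 0.08 (-0.28 to 0.45) was no detectable difference at this depth, and for CDK16-sh2 it was -2.03 (-2.79 to -1.47). In the Reb experiment it gave 338, 340 and 36 counts, with log2 fold changes of -0.02 and -2.09 (-2.66 to -1.63). The third activator, E2F3 (chr6:20401906-20493715), stood apart from both. It gave 1101, 836 and 1134 counts in the knockdown experiment (log2 fold change -0.67 and 0.15). In the Reb experiment it gave 2538, 2340 and 1038 counts (-0.14 and -0.18). E2F3 was thus not among the members at least 2-fold lower at 5 µM. Its 5 µM value was -0.87 with library totals and -0.86 with the authors' RPKM, lower but still short of 2-fold. Its promoter window held paired words like those of E2F1 and E2F2.

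E2F4 (chr16:67192169-67198918), the main repressor-side E2F and a partner of RBL1 and RBL2, was above scramble in both hairpin lines. It gave 2564, 4167 and 3072 counts, with log2 fold changes of 0.42 (0.35 to 0.50) and 0.37 (0.29 to 0.44), and a difference between the hairpins was not detectable at this depth (-0.06, -0.12 to 0.01). With the GC and length trend removed, E2F4 stood at 0.06 for CDK16-sh1 and 0.31 for CDK16-sh2. In DMSO, 1 µM and 5 µM Reb it gave 3752, 3280 and 1052 counts. Both doses were below DMSO, by -0.22 and -0.73 on the log2 scale, and the 5 µM value ranked at percentile 33.4 of all tested genes. That value was -1.41 with library totals, past 2-fold, and -0.18 with the GC trend removed.

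The atypical repressors E2F7 and E2F8 took opposite places under the hairpins. E2F7 (chr12:77021247-77065580) gave 1933, 1116 and 1645 counts in scramble, CDK16-sh1 and CDK16-sh2, and was lower mainly in CDK16-sh1 (log2 fold change -1.07 and -0.13). E2F8 (chr11:19224063-19241620) gave 604, 464 and 103 counts and was lower mainly in CDK16-sh2 (-0.65 and -2.42). The direct differences of CDK16-sh2 from CDK16-sh1 were 0.94 (0.83 to 1.05) for E2F7 and -1.77 (-2.11 to -1.48) for E2F8. E2F8 in CDK16-sh2 was below all but 0.51% of tested genes.

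Under Reb both atypical factors were low at 5 µM. E2F7 gave 3468, 3728 and 385 counts in DMSO, 1 µM and 5 µM, and E2F8 gave 959, 1119 and 40. Each was a little above DMSO at 1 µM (0.08 and 0.20). At 5 µM E2F7 was 4.17-fold lower (log2 fold change -2.06) and E2F8 10.8-fold lower (-3.44, interval -3.97 to -3.02), the lowest of the 10 members.

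TFDP1 (chr13:113584721-113641470), the DP subunit that E2F1 to E2F6 need to bind DNA, was low in CDK16-sh2 alone. It gave 3347 counts in scramble, 4602 in CDK16-sh1 and 1017 in CDK16-sh2. The first hairpin line stood at 0.18 on the log2 scale (0.12 to 0.25) and the second at -1.61 (-1.71 to -1.51), which is 3.05-fold lower than scramble, and their direct difference was -1.79 (-1.89 to -1.70). In DMSO, 1 µM and 5 µM Reb it gave 7372, 7972 and 4780 counts. TFDP1 stood at 0.09 and 0.48 against DMSO, but the 5 µM value fell below 0 under scaling by library totals. The other DP gene, TFDP2, lay between -0.13 and 0.11 in the 4 treated libraries, but at -0.66 at 5 µM with library totals and at 0.34 in CDK16-sh2 with the GC and length trend removed.

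The remaining E2F genes, E2F5 and E2F6, are both repressive. E2F5, which shares 969 exon bases with C8orf59 on the opposite strand, gave 241, 543 and 290 counts in the knockdown experiment and 444, 469 and 262 in the Reb experiment. E2F6 gave 451, 668 and 392, and 506, 581 and 391 counts. Their log2 fold changes at 5 µM Reb were 0.35 and 0.73. With library totals E2F5 turned to -0.34 and E2F6 stood at 0.05.

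The make-up of the E2F pool differed accordingly. E2F1 to E2F8 summed to 80.3 RPKM in scramble, 91.2 with CDK16-sh1 and 65.3 with CDK16-sh2. In DMSO, 1 µM and 5 µM Reb the sums were 59.4, 60.7 and 20.1 RPKM. RPKM follows library totals, so sums compared between libraries depend on that scaling. At 5 µM the median log2 fold change of all tested genes was -0.75 with library totals and -0.07 with TMM. E2F1 made up 25.1% of this sum in scramble, 34.9% in CDK16-sh1 and 15.7% in CDK16-sh2. The atypical factors together made up 21.8%, 9.93% and 15.9%. In both hairpin lines E2F4 took a larger share than in scramble (34.5%), with 39.9% and 47.8%. The shares in CDK16-sh1 were not freed of the trend of all genes on GC content and length. With that trend removed, the CDK16-sh1 log2 fold change was 0.16 for E2F1 (0.69 before) and 0.06 for E2F4 (0.42 before). For E2F7 it was -0.74 (-1.07 before) and for E2F8 -0.525 (-0.65 before).

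At 5 µM Reb the pool was smaller in RPKM and its make-up differed. E2F1 made up 13.6% of it in DMSO, 16% at 1 µM and 5.66% at 5 µM, and E2F7 with E2F8 made up 26.2%, 28.8% and 9.37%. E2F3 took 16.4%, 15.1% and 26.6%, and E2F6 took 4.16%, 4.77% and 12.7%. These shares were not freed of the trend of all genes on GC content and length. With that trend removed, the 5 µM log2 fold change was -1.73 for E2F1 (-2.13 before) and -0.18 for E2F4 (-0.73 before). For E2F7 it was -2.15 (-2.06 before), for E2F8 -3.49 (-3.44), for E2F3 -0.21 (-0.18) and for E2F6 0.60 (0.73). The ratio of TFDP1 to the summed E2F genes was 0.659 in DMSO, 0.711 at 1 µM and 1.69 at 5 µM, against 0.431, 0.422 and 0.151 in scramble, CDK16-sh1 and CDK16-sh2. The high dose and CDK16-sh2 thus lay on opposite sides of their controls in this ratio.

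**Figure D3:**
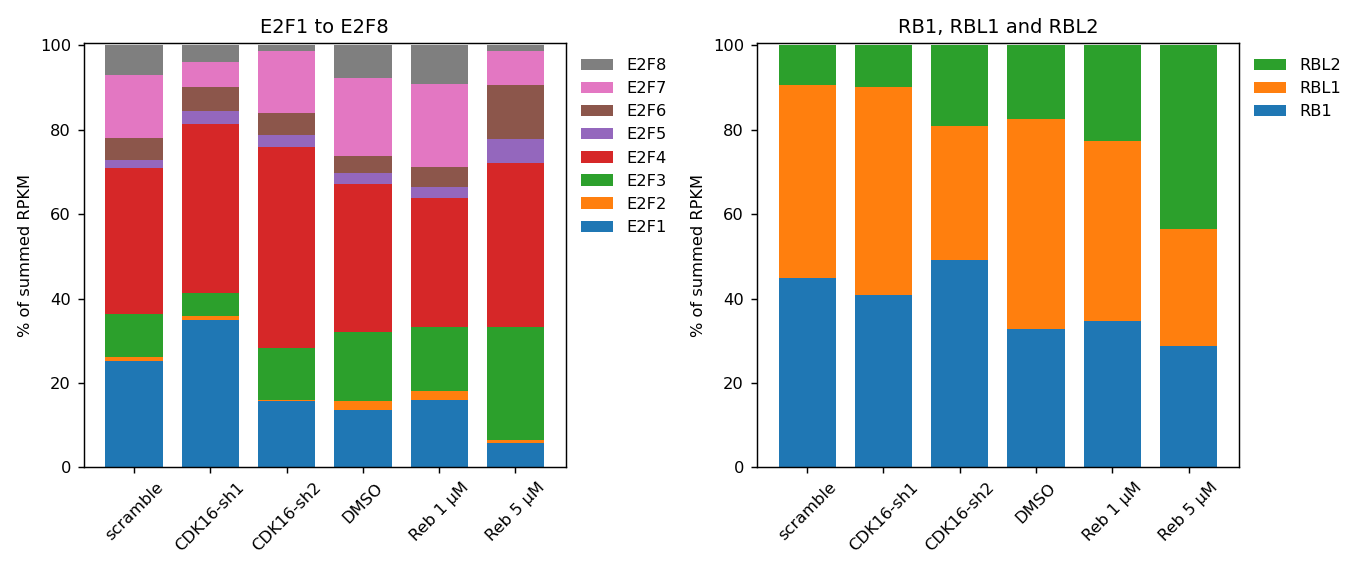
Share of each gene in the summed RPKM of E2F1 to E2F8 (left) and of RB1, RBL1 and RBL2 (right), 1 stacked bar per library, on a linear axis from 0 to 100%. At 5 µM Reb the shares of E2F1 (5.66%) and of E2F7 with E2F8 (9.37%) were the smallest of the 6 libraries, and that of RBL2 among the pocket proteins (43.6%) was the largest.

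GC content moved with the CDK16-sh1 values. Over all tested genes, the log2 fold change of CDK16-sh1 correlated with the GC content of the longest annotated transcript (r = 0.48). The correlation was weaker for CDK16-sh2 (0.13), Reb 1 µM (-0.30) and Reb 5 µM (-0.22). In log2 units the trend at 5 µM was not small. The medians of all genes in bins of GC content ran there from 0.55 (bin of 37% GC) to -0.66 (59.5%). In CDK16-sh1 they ran from -0.46 to 0.47. RB1, RBL1, E2F7 and RBL2, the 4 members past 2-fold in CDK16-sh1, were the 4 with the lowest GC content (37.3% to 43.2%). E2F2, E2F4 and E2F1 were the 3 with the highest (57.5% to 62.5%). Of these, E2F1 and E2F4 stood above scramble in that line, and E2F2 was not detectably different from it (0.08). TFDP1 also stood above scramble there (0.18), at 46.6% GC. With the trend on GC content and length over all genes taken out, the 4 members stood between -0.83 and -0.66 and none was past 2-fold in CDK16-sh1, and E2F1 stood at 0.16 instead of 0.69. The same step left 4 members past 2-fold in CDK16-sh2 and 6 at 5 µM Reb. It still moved single members at 5 µM by -0.40 to 0.63 on the log2 scale, against -0.53 to 0.50 in CDK16-sh1. The source of the GC trend was not tested.

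**Figure D4:**
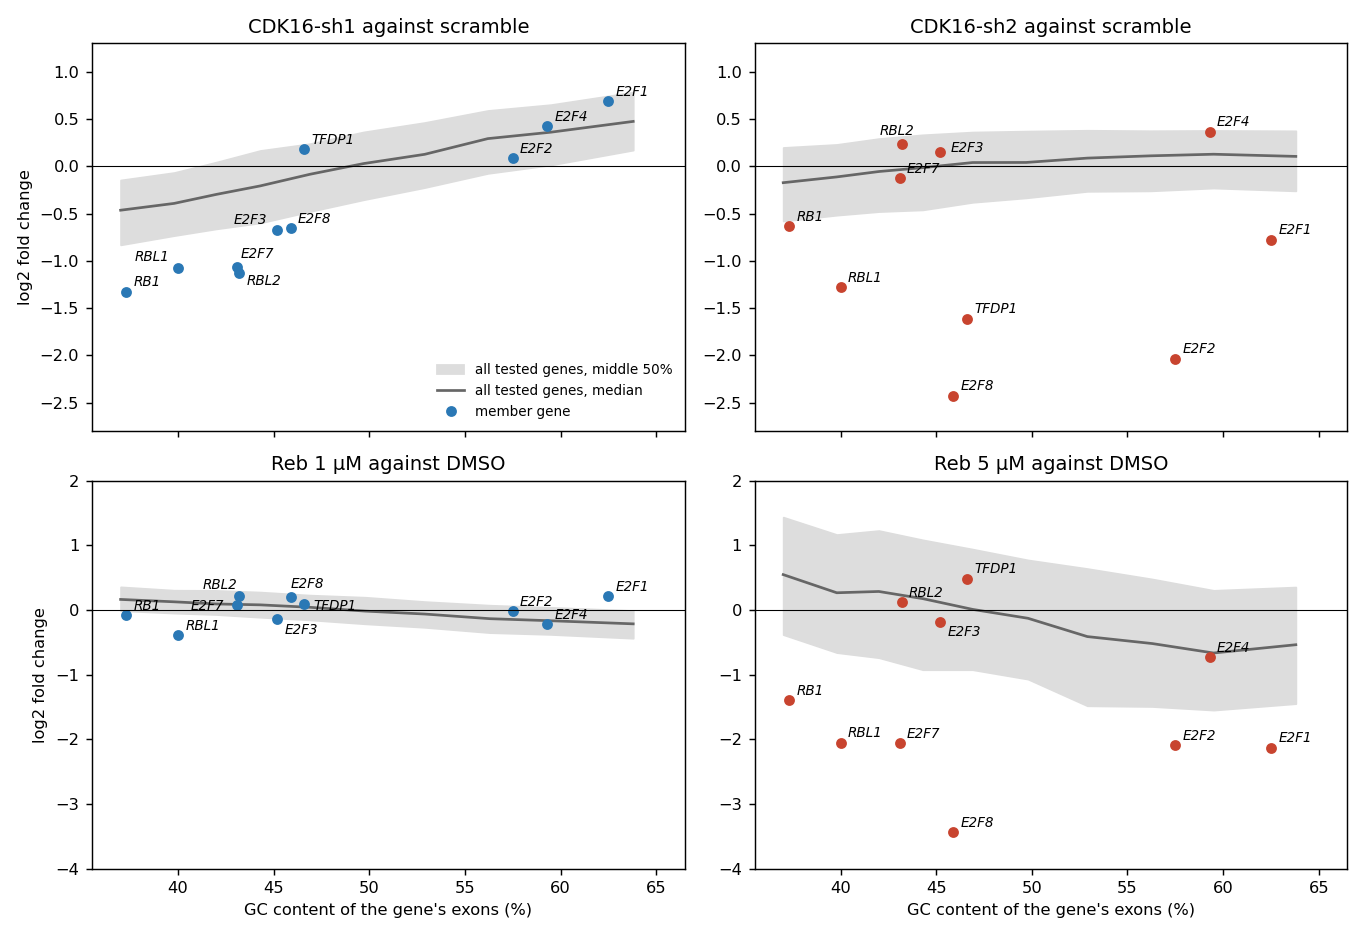
Log2 fold change of the 10 genes (points) against the GC content of their exons, taken from the longest annotated transcript, in the 4 treated libraries. The line is the median and the band the middle 50% of all tested genes in 10 equal bins of GC content. In CDK16-sh1 the median of all genes climbed from -0.46 in the bin of lowest GC content to 0.47 in the highest, and the members broadly followed that order, which they did not in CDK16-sh2 or at 5 µM Reb. At 5 µM the median of all genes fell from 0.55 in the lowest bin to -0.54 in the highest.

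No member passed a test that treats the 2 treated libraries of an experiment as 1 group. The targeted gene CDK16 was not called for the knockdown either (log2 fold change -1.66). A missing call therefore does not show that a member was unchanged. With edgeR's quasi-likelihood test at a Benjamini-Hochberg adjusted p of 0.05 and at least 2-fold, 0 of 15295 genes were called for the knockdown (0% of genes, smallest adjusted p = 0.195, 382 genes with an unadjusted p under 0.05), and DESeq2 called 0 as well (233 with an unadjusted p under 0.05). E2F8 (log2 fold change -1.29, unadjusted p = 0.0191, adjusted p = 1) and RBL1 (-1.18, unadjusted p = 0.0248, adjusted p = 1) had the smallest p-values of the members in edgeR, and both were below scramble in 2 of 2 hairpin lines. For Reb, 12 genes were called (0.0767% of 15655) and none was a member, with adjusted p = 1 in edgeR for each of the 10.

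When the dose was entered as a linear term in log2(dose + 1) instead, edgeR called 11.1% of genes lower and 13.3% higher, with 1 residual degree of freedom and the 5 µM library carrying most of the slope. In that fit 4 of 10 members were called lower: E2F8 (adjusted p = 0.00241), RBL1 (0.0139), E2F7 (0.0157) and E2F1 (0.0231). RB1 (adjusted p = 0.0936) and E2F2 (0.0537), which were also more than 2-fold lower at 5 µM, did not pass.

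The E2F target list of 52 genes, made of replication factors, nucleotide synthesis enzymes and S-phase cyclins, was all tested in both experiments. Against scramble, 44 of 52 targets lay below in CDK16-sh1 and 50 of 52 in CDK16-sh2, where the medians were -0.43 and -0.65 and the medians of all tested genes were -0.00 and 0.02. At least 2-fold lower were 2 targets with CDK16-sh1 and 13 with CDK16-sh2, beside 6.86% and 7.62% of all tested genes. The CDK16-sh1 count was thus not above the share of all genes. None was 2-fold higher. CCNE2, a cyclin that activates CDK2 at G1/S, gave 510, 324 and 142 counts (-0.93 and -1.73). It was below scramble in both hairpin lines and lowest in CDK16-sh2.

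At 1 µM Reb 22 of the 52 targets were below DMSO, with a median of 0.07 and none past 2-fold. At 5 µM 45 were below, 35 by at least 2-fold where 27.2% of all tested genes were, and the median was -1.60 where that of all tested genes was -0.07. POLA2, a subunit of DNA polymerase alpha, gave 649 and 544 counts in DMSO and 1 µM and 5 at 5 µM (log2 fold change -5.63, interval -7.54 to -4.68). CCNE2 gave 964, 1719 and 31 counts, above DMSO at the low dose (log2 fold change 0.81) and below it at the high dose (-3.80). Of the 7 targets above DMSO at 5 µM, RFC3 and EZH2 were past 2-fold (1.12 and 1.37), and these 2 were picked out after their values were seen. Neither stayed past 2-fold with library totals or the authors' RPKM. The pooled edgeR test called none of the 52 in either experiment (smallest adjusted p = 1, with 3 at an unadjusted p under 0.05 for the knockdown and 0 for Reb), and the fit with dose as a linear term called 23 lower and none higher, beside 11.1% and 13.3% of all genes.

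Among the targets the study followed by quantitative PCR, RRM2, the small subunit of ribonucleotide reductase, gave 6761, 6043 and 3035 counts in the knockdown experiment and 7275, 5352 and 269 with DMSO, 1 µM and 5 µM Reb. TOP2A, the topoisomerase of S and G2 phase, was lower in both hairpin lines (log2 fold change -1.25 and -1.26) and at 5 µM (-4.09). Its GC content is 39.1%, and in CDK16-sh1 the median of all tested genes was -0.39 in the bin of 39.8% GC content. MKI67, which encodes Ki-67, stood at -0.74 and -0.80 with the hairpins and at -0.62 and -3.02 with Reb. CDK2 stood at -0.82 and -0.53, and at -0.37 and -2.44. MCM7, a helicase subunit, stood at 0.19 and -0.45, and at -0.44 and -1.13, so CDK16-sh1 was not below scramble for it. The study reported MCM7 as significantly lower by quantitative PCR after knockdown. MCM7 has a GC content of 57.6%. In CDK16-sh1 the medians of all tested genes were 0.29 and 0.36 in the bins with a median GC content of 56.2% and 59.5%. The lower quartiles in these bins were -0.07 and 0.02. Whether GC content bears on the MCM7 value was not tested.

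**Figure D5:**
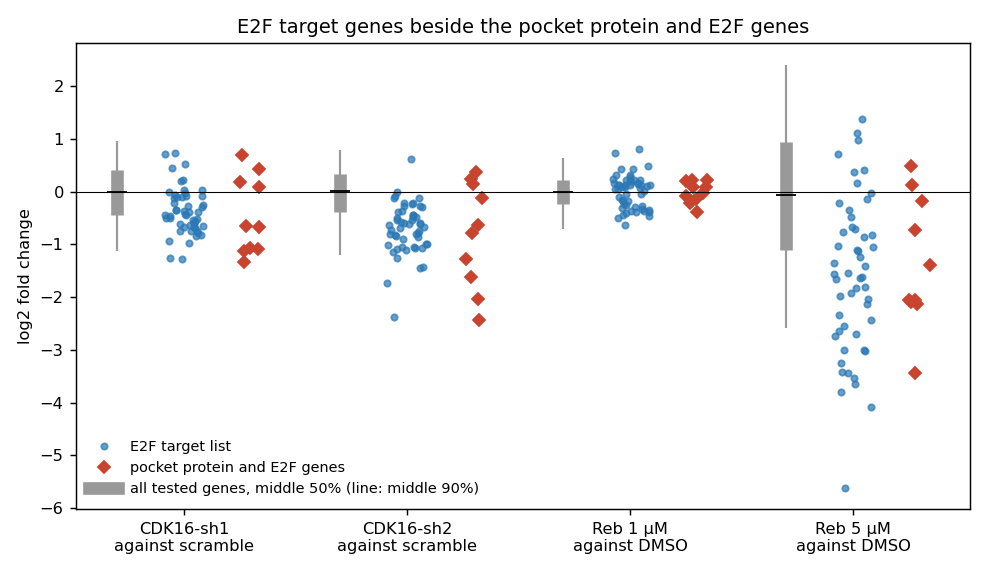
Log2 fold change of the 52 E2F target genes (circles) and the 10 pocket protein and E2F genes (diamonds) in the 4 treated libraries, beside the spread of all tested genes (grey bar, middle 50%, thin line, middle 90%, tick, median). At 5 µM Reb the target median was -1.60, and the members ran from -3.44 (E2F8) to 0.48 (TFDP1).

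Genes with E2F words in their promoter window were only partly set apart. At 5 µM Reb, the 1253 tested genes with at least 1 word had a median log2 fold change of -0.17, and the 8736 without one had -0.11. The 84 tested genes with at least 2 words, which include E2F1, E2F2, E2F3 and RBL1, had a median of -0.92, and 47.6% of them were at least 2-fold lower against 28% of genes with none. In CDK16-sh2 the 84 genes had a median of -0.22 and 13.1% were at least 2-fold lower, against 7.23% of genes with none. In CDK16-sh1 7.14% were at least 2-fold lower against 6.58%, and 5.95% higher against 3.42%. At 1 µM Reb 0% were lower against 1.63%. Of the 45 target genes with a window, 57.8% held a word, and 7.43% of all symbols did. These are descriptions of letters in a window, with no test.

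Around the pocket proteins, the MuvB and DREAM genes gave no uniform picture. Of 8, 2 were at least 2-fold lower in CDK16-sh1 (LIN54 and LIN9, log2 fold change -1.29 and -1.05), 1 in CDK16-sh2 (LIN54, -1.09), none at 1 µM Reb and 3 at 5 µM, where the shares of all tested genes were 6.86%, 7.62%, 1.92% and 27.2%. LIN54, the subunit that binds CHR elements, gave 505, 249 and 219 counts in scramble, CDK16-sh1 and CDK16-sh2. LIN54 and LIN9 have a GC content of 39.1% and 41.2%. In CDK16-sh1 the medians of all tested genes were -0.39 and -0.30 in the bins of 39.8% and 42% GC content. The CDK16-sh1 values of LIN54 and LIN9 were not freed of that trend here. MYBL2, the B-Myb factor that replaces pocket proteins on MuvB in S phase, gave 9835, 11595 and 897 counts with DMSO, 1 µM and 5 µM Reb. DYRK1A, the kinase that starts DREAM assembly by phosphorylating LIN52, gave 1225, 1297 and 3415 counts in the same libraries (log2 fold change 0.06 and 2.58). It was the 1 gene of these 8 more than 2-fold above DMSO at 5 µM, where 23.6% of all tested genes were at least 2-fold higher. That 1 of 8 was not above the share of all genes. LIN37 and LIN52, core subunits named after their values were seen, stood at -1.33 and -1.41 at 5 µM.

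Of the 16 kinases, cyclins and inhibitors that act on the pocket proteins, 13 were tested in each experiment. CDKN2A, the gene of p16 that this line is known to have lost, gave 0 counts in 5 libraries and 4 in Reb 5 µM (named after its counts were seen, as are the other CDK inhibitors and CCND1 here). None of the 13 was at least 2-fold lower in CDK16-sh1 and 2 were in CDK16-sh2 (CCNE2 and CCND1, the latter at -1.27), and CCND2, a D-type cyclin, was at least 2-fold higher in CDK16-sh1 (93 counts in scramble, 339 in CDK16-sh1 and 134 in CDK16-sh2). At 1 µM Reb 2 of 13 were at least 2-fold lower, the CDK inhibitor genes CDKN1A (p21, -1.33) and CDKN1C (p57, -1.41). At 5 µM 6 were lower and 2 higher, CDKN1C (1.61) and CDKN2D (p19, 2.34). CDKN1C rested on few counts, 72, 26 and 104 in DMSO, 1 µM and 5 µM. Its intervals were -2.20 to -0.83 at 1 µM and 1.19 to 2.09 at 5 µM. In RPKM, which follows library totals, it stood at 0.553, 0.204 and 1.07. Of all tested genes, 6.86% were at least 2-fold lower and 4.33% higher in CDK16-sh1, and 7.62% were lower in CDK16-sh2. The shares under Reb were 1.92% lower at 1 µM, and 27.2% lower and 23.6% higher at 5 µM. CCNA2, the S-phase partner of CDK2, gave 4161, 3178 and 296 counts with DMSO, 1 µM and 5 µM (log2 fold change -0.41 and -2.70).

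Of 10 chromatin partners that bind RB1, 1 was at least 2-fold lower in CDK16-sh1 (ARID4A, -1.09) and none in CDK16-sh2 or at 1 µM Reb. Of all tested genes, 6.86%, 7.62% and 1.92% were that low in these libraries. SMARCA2, the BRM ATPase, stood at -0.92 and -0.30 in the hairpin lines. ARID4A and SMARCA2 have a GC content of 37.5% and 42.9%. In CDK16-sh1 the medians of all tested genes were -0.46 and -0.30 in the bins of 37% and 42% GC content. The values of these 2 genes were not freed of that trend here. At 5 µM 3 were lower and 1 higher, near or under the 27.2% and 23.6% of all tested genes. In the fit with dose as a linear term, edgeR called 1 lower and 1 higher of these partners, 4 lower and 1 higher of the kinases, cyclins and inhibitors, and 1 lower and 1 higher of the MuvB and DREAM genes. Over all genes 11.1% were called lower and 13.3% higher in that fit, and the pooled test called none of the 3 lists. SUV39H1, a histone H3 lysine methyltransferase, gave 1029, 729 and 76 counts in DMSO, 1 µM and 5 µM (log2 fold change -0.52 and -2.63). HDAC2, a histone deacetylase, gave 12929, 15705 and 25888 counts (0.26 and 2.11).

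Over the 4 log2 fold changes together, and among the 10554 genes that averaged 5 CPM or more in each experiment, LEMD3, HEG1 and LRP8 lay nearest to RB1 (Euclidean distance 0.136 to 0.229). NECAB3, PKMYT1 and PAQR4 lay nearest to E2F1 (0.228 to 0.379). NTN4, BMPER and AIM1 lay nearest to E2F8, at a greater distance (0.712 to 0.857). No neighbour of E2F8 was as close as those of RB1 in these 4 values.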

How the data were processed

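The libraries were made from total RNA with a stranded mRNA kit and sequenced on a HiSeq X 10. The submitters' processing notes name Trimmomatic, featureCounts from Subread 1.5.1 and the GRCh38 build, and the aligner and annotation are not given in the sources used here. The authors deposited raw gene counts, with gene lengths, and RPKM values, which equal the counts scaled to gene length and to the column's total. From the counts, log2 fold changes were computed with TMM scaling (edgeR 4.0.16), a prior count of 2 and genes of at least 1 mean CPM, with exact 95% conditional binomial intervals, and levels with exact Poisson intervals, which cover counting error only. The pooled test was edgeR's quasi-likelihood test, with DESeq2 1.42.0 as an alternative, both in R 4.3.3, checked on simulated counts. GC content was that of the longest GENCODE transcript of each symbol, and was known for 84.6% and 84.3% of tested genes. Symbols turned into dates in the tables (28 and 27) were left as they stood. The members and gene lists were chosen with earlier results of these data known. Named genes were the members, their family, CDK16, the 2 genes per list and experiment furthest from control (1 gene that this rule names is not reported here), 5 genes followed by quantitative PCR and the 3 nearest patterns to RB1, E2F1 and E2F8.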

Additional observations from a re-analysis of the deposited data

How the results depend on the processing

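With 1 library per condition, no library could be left out of a test and no paired analysis was possible because each condition had 1 library; the hairpin lines and doses stood in as the only spread. Fold changes in Reb 5 µM depend on the scaling: its top 100 genes took 35.3% of counts against 24.3% in DMSO, and the median of all genes was -0.07 with TMM and -0.75 with library totals, so that 4254 genes lower and 3695 higher became 6792 and 1835 (6490 and 1734 with the authors' RPKM, 6188 and 2138 without mitochondrial counts). In CDK16-sh2 the calls of 1166 lower and 336 higher became 1701 and 152 with library totals, 1459 and 206 without mitochondrial counts and 1468 and 123 with RPKM. With no filter on low counts they were 2730 lower and 2172 higher in CDK16-sh1 (1049 and 663 with the filter), 3222 and 1897 in CDK16-sh2, 2267 and 2440 at 1 µM (300 and 200 with it) and 8286 and 8070 at 5 µM. With the GC and length trend removed they were 539 and 296 in CDK16-sh1 and 796 and 348 in CDK16-sh2. For 1 µM Reb, RPKM gave 205 and 165.

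Members at least 2-fold lower in CDK16-sh1 went from 4 to 0 with the GC and length trend removed. At 1.5-fold 1 member was higher there, with no share of all tested genes computed at that threshold. For all other scalings, filters and thresholds tried, the counts of members past 2-fold stayed within 1.5 times the reported ones, between 6 and 7 at 5 µM. Scaling by library totals put RBL2 and TFDP1 below DMSO at 5 µM, E2F3 below scramble in CDK16-sh2 and E2F2 above DMSO at 1 µM. Removing the GC trend put E2F2 below scramble in CDK16-sh1, E2F7 above scramble in CDK16-sh2, and at 1 µM E2F2 above and E2F7 below DMSO.

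E2F targets at least 2-fold lower in CDK16-sh1 numbered 1 with the GC trend removed and 18 at 1.5-fold, with 2 higher at 1.5-fold, and their median was -0.33 with the trend removed. In CDK16-sh2, 31 were lower and 1 higher at 1.5-fold, and the median was -0.84 with library totals, -0.76 without mitochondrial counts and -0.84 with RPKM. At 1 µM Reb, 1 was lower and 2 higher at 1.5-fold. At 5 µM the 2 higher targets became 0 with library totals, with or without mitochondrial counts, and with RPKM, 1 with no filter and with the GC trend removed, and 4 at 1.5-fold. The median there was -2.28 with library totals, -2.13 without mitochondrial counts, -1.80 with no filter and -2.20 with RPKM. The target counts at 1.5-fold have no share of all tested genes beside them, because none was computed at that threshold.

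The pooled Reb test called 1 gene lower and 11 higher, which became 0 and 0 with library totals, 0 and 3 with no filter, 4 and 13 with DESeq2, and 1744 and 2088 with dose as a linear term, where 4 members were called lower. The cause of these differences was not tested.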
